A study of Mus musculus with 12 samples.

Results

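The solute carrier genes, whose names begin with Slc and a family number, encode membrane transporters for small molecules. They were taken as every gene whose name in any of the 4 deposited peak tables matched Slc followed by a digit, and there were 96 of them among 6074 gene names. Of these 96, 95 encode transporters. The remaining name, Slc7a6os, belongs to a gene on the strand opposite to Slc7a6 that is not a transporter, and it was counted apart in the groups by cargo.

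The study mapped N6-methyladenosine (m6A) in the mRNA of J1 mouse embryonic stem (ES) cells by immunoprecipitation (IP) of RNA fragments with an anti-m6A antibody. The cells were grown with leukemia inhibiting factor on irradiated mouse embryonic fibroblasts and were infected with lentiviral shRNA constructs, followed by selection in puromycin, which all groups shared. The 3 groups were a scramble shRNA control, Mettl14 knockdown and Mettl3 knockdown, with 2 IP libraries each, and the tables pair 1 knockdown library with 1 scramble library. There are 2 such pairings per knockdown, called set 1 and set 2 here only to keep the tables apart, and both tables of a set share their scramble library. The level of Mettl14 or Mettl3 itself is not in the peak tables, so the knockdowns were not checked here. The sources do not say that the sets came from separate cultures, so differences between them describe the spread of these samples, which may be technical. With 2 libraries against 2, an exact permutation test, two-sided, cannot give a p below 0.333, and no test of condition was run.

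Mettl3 is the catalytic subunit of the complex that writes m6A on nascent mRNA, and Mettl14 is its partner in substrate binding. The mark is placed mainly within a GGAC core, lies often near stop codons and in long exons, and is known in ES cells for speeding the turnover of transcripts. Solute carriers are grouped into families by sequence, and each family tends to carry 1 kind of cargo, such as amino acids, hexoses, metal ions or the metabolites exchanged across the inner mitochondrial membrane. ES cells depend on several of them for glucose, glutamine and other amino acids.

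The annotation holds 379 Slc gene names in 49 families, and 25.3% of the names, from 32 families, carried a listed peak. The share over all annotated genes was not counted. Neither this share nor the counts by family and by list below can therefore be set against other genes. The mitochondrial carriers of family 25 were the most numerous with 13 genes, followed by the nucleotide sugar transporters of family 35 with 10. Families 12, for cation chloride cotransporters, and 39, for zinc importers, had 6 genes each. Among the 17 families with no listed member were family 9, the sodium proton exchangers, with 14 annotated names, family 4, the bicarbonate transporters, with 11, and family 17, which includes the vesicular glutamate transporters, with 9. In these bulk samples an unmethylated transcript, a scarce one and one carried by few cells cannot be told apart, since the tables hold no expression level. Of 26 transporters for fuel and amino acid uptake in ES cells, 13 were listed and 6 had a peak in both scramble libraries. Among the 13 without a listed peak were Slc3a2, Slc7a3, Slc7a5, Slc7a11, Slc1a3, Slc38a1, Slc38a4, Slc16a1, Slc20a1, Slc25a1, Slc25a5 and Slc29a1. Of 11 ES cell markers 4 were listed, of which Sox2, Klf4 and Sall4 had peaks in both scramble libraries. Of 11 fibroblast markers 2 were listed and none had peaks in both. The remaining markers of both kinds had no listed peak. As a peak is not an expression level, these counts do not check the identity of the cells.

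The scramble libraries held 99 Slc peaks in 82 genes in set 1 and 57 Slc peaks in 52 genes in set 2. The Mettl14 knockdown libraries held 60 and 36 Slc peaks and the Mettl3 knockdown libraries 61 and 40, in set 1 and set 2. These were 1.48% and 1.23% of the scramble peaks with a gene name, and 0.951% to 1.33% of those in the knockdown libraries. Median width of Slc peaks was 584 and 637 nt in the scramble libraries, against 593 and 709 nt over all peaks with a gene name. The enrichment of a peak, which is the peak caller's ratio of IP to the control of that library and the authors' own value throughout, had a median of 15.6 and 15.1 in scramble Slc peaks and of 15.5 and 15.3 over all. Median enrichment in scramble cells was thus close to that of all peaks, and median width was below it in both libraries. Their enrichments ran from 2.57, in Slc2a1, to 229 in set 1, and from 4.34 to 156 in set 2. In the knockdown libraries, where every peak carries a tag count, Slc peaks held 4 to 417 tags, with medians from 58.5 to 75.0 per library against 65.0 to 85.0 over all.

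Peaks of the 6 libraries that overlapped were joined into sites, which gave 128 Slc sites among 8494 sites with a gene name. Of the 96 genes, 69 had 1 site, 22 had 2 and 5 had 3, and 28.1% of Slc genes against 31.2% of all genes had more than 1. By the centre of the first listed peak, 41 Slc sites (32%) lay in 3′ UTRs, against 20.1% of all sites. A further 23 (18%) lay within 100 nt of a stop codon, against 13.8%, and 18 (14.1%) lay in 5′ UTRs, against 6.1%. In coding sequence away from the stop codon lay 37 Slc sites (28.9%), against 48.2%. The remaining 9 (7.03%) had their centre outside annotated exons, against 9.14%. These shares describe the listed sites, and sites in 1 gene are not independent. Of the 18 sites in 5′ UTRs, 12 were found in 1 library and 9 only in knockdown libraries. Of the 37 coding sites, 9 were found in 1 library and 6 only in knockdown libraries.

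**Figure D1:**
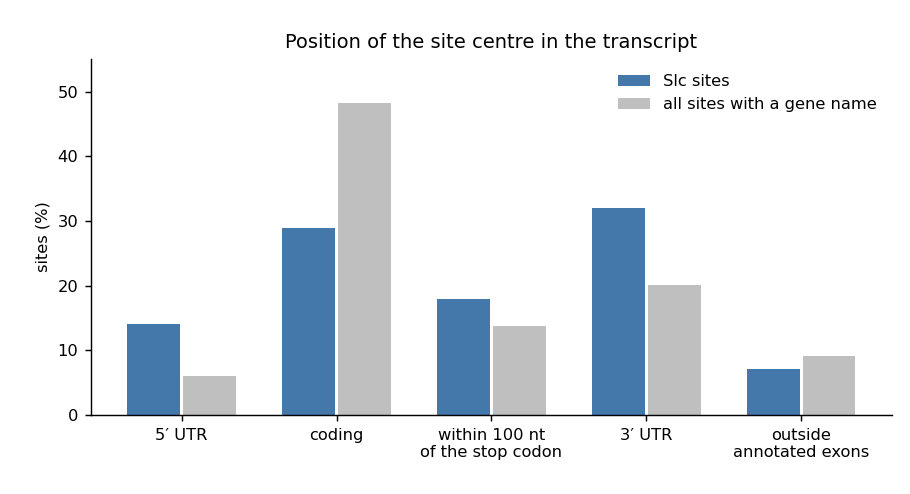
Percent of Slc sites (blue, 128 sites) and of all sites with a gene name (grey, 8494 sites) by the position of the site centre in the transcript. Slc sites stand at 32% in 3′ UTRs and 28.9% in coding sequence, where all sites stand at 20.1% and 48.2%.

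The GGACT motif, searched within 100 nt either side of the centre in the spliced transcript, was present at 37 of 110 Slc sites that could be read (33.6%), at 33.6% of all such sites and in 20.2% of all windows of 201 nt of the same transcripts. On the opposite strand it was present at 19.1% of Slc sites, 18.6% of all sites and 17.9% of windows. The GGAC core, which every GGACT contains, was present at 77.3% of Slc sites, 75.7% of all sites and 55.9% of windows. A called peak is wider than the modified base, so a match marks a candidate position and not a measured one. The sequences shown here are the GGAC nearest to the peak centre at the sites on which the results turn, with the core, or GGACT where complete, in capitals. They are 29 nt long, read 5′ to 3′ from GENCODE M21 transcripts (mm10), with T for U. The first 4 belong to sites that were in both scramble libraries and in no knockdown library:
Slc10a3, minus strand at chrX:74370589-74370617: agccaatacactGGACagaccaatgggac
Slc25a37 site 1, minus strand at chr14:69244975-69245003: ccaatgccttccGGACggtgtaccagctc
Slc2a6, minus strand at chr2:27021775-27021803: acttccaccttgGGACaggcagtttacca
Slc31a2, plus strand at chr4:62297537-62297565: ccagcctttaggGGACagaccacgccagc
The next 4 belong to sites in all 6 libraries with enrichments below scramble in the Mettl3 libraries:
Slc22a23, minus strand at chr13:34183022-34183050: cgcggagctcaaGGACTactcgggcctgc
Slc37a3, minus strand at chr6:39336882-39336910: ggttttggtcctGGACccttgttcttcag
Slc45a4 site 2, minus strand at chr15:73586672-73586700: cgacgccacactGGACatggagccccagc
Slc7a1, minus strand at chr5:148332268-148332296: ctggtcatttctGGACagtcccttggttt
Then come a site in all 6 libraries with like enrichments, the site with the lowest mean Mettl14 change, and sites found with only 1 of the knockdowns:
Slc25a28 site 1, minus strand at chr19:43664298-43664326: tcaaacattactGGACacatcacaggcat
Slc43a1, plus strand at chr2:84863159-84863187: ctatttttgtagGGACTtgcaaaaaagga
Slc35b3 site 1, minus strand at chr13:38932772-38932800: tgaaaaagtcaaGGACgttggcacagact
Slc7a6os, minus strand at chr8:106200886-106200914: ccagcacagtgaGGACTtccttgtaagtg
Slc19a1, plus strand at chr10:77042146-77042174: ctggtcaccgtaGGACatataagcaccta
Across the searched Slc sites, 100 of 112 had a GGAC inside the called peak and in 30 of them the nearest was a GGACT. That count was not made over all sites. The median scramble Slc peak is wider than the windows of 201 nt, of which 55.9% held a GGAC, so the count does not show enrichment of the motif. All 4 of the lost sites shown have GGAC followed by another base than T, as do 3 of the 4 lowered ones.

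Between 49.5% and 56.1% of the scramble Slc peaks had no overlapping peak in the knockdown library of their table. Such a peak is called lost, and overlap means at least 1 nt on the same strand. With Mettl14 knockdown 50 of 99 scramble Slc peaks were lost in set 1 (50.5%, 95% Wilson interval 40.8 to 60.1) and 32 of 57 in set 2 (56.1%, 43.3 to 68.2). Over all scramble peaks with a gene name the lost share was 38.9% and 41.2%. With Mettl3 knockdown 49 of 99 were lost in set 1 (49.5%, 39.9 to 59.2) and 29 of 57 in set 2 (50.9%, 38.3 to 63.4), where the share over all was 40.9% and 36.6%. The Slc share was above the share over all in each of the 4 tables. The share over all lay below the Slc interval in both Mettl14 tables and in the Mettl3 table of set 2, and inside it in the Mettl3 table of set 1. The intervals cover counting error alone and take peaks as independent. Peaks of 1 gene are not, and both tables of a set share their scramble peaks. Whether the Slc share differs from the share over all was not tested.

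Absence of a peak was also common between the scramble libraries. Of the 99 Slc peaks of the set 1 scramble library, 48 (48.5%, 38.9 to 58.2) had no partner in the set 2 scramble library, against 38% over all. In the other direction 8 of 57 (14%, 7.29 to 25.3) had none, against 12.2%. The Mettl14 libraries differed from each other in 35 of 60 set 1 Slc peaks and 12 of 36 set 2 Slc peaks (58.3% and 33.3%, against 38.1% and 20.8% over all). For the Mettl3 libraries these were 31 of 61 and 11 of 40 (50.8% and 27.5%, against 30.7% and 21.4%). The set 1 lists are longer than the set 2 lists, with 6707 against 4629 scramble peaks with a gene name, which bounds how many can find a partner. For set 1, the shares lost to knockdown lay within the interval of the share missing from the other scramble library. For set 2 they lay above that interval, but there the other scramble library is the longer list.

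**Figure D2:**
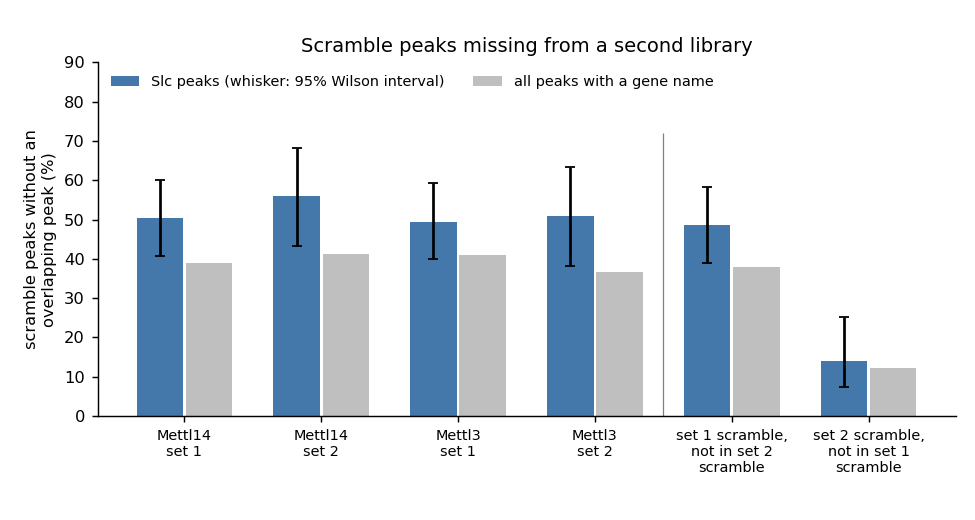
Percent of scramble peaks with no overlapping peak in the knockdown library of the table (left of the line) or in the other scramble library (right), for Slc peaks (blue, whiskers are 95% Wilson intervals) and all peaks with a gene name (grey). The blue bars stand between 49.5% and 56.1% in the knockdown tables, at 48.5% for set 1 scramble against set 2 scramble and at 14% the other way.

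Lost Slc peaks were narrower than those that found a partner. Median widths of lost and kept scramble Slc peaks were 489 and 738 nt for Mettl14 in set 1, 576 and 969 nt in set 2, 477 and 648 nt for Mettl3 in set 1, and 577 and 853 nt in set 2. The order was the same over all peaks with a gene name, with 444 to 547 nt for lost and 725 to 849 nt for kept ones. Median enrichment of lost Slc peaks was 15.8, 16.6, 15.8 and 18.9 in the same order of tables, and 15.5, 14.1, 14.8 and 9.89 for kept ones. New peaks, found in the knockdown library alone, numbered 9 of 60 and 10 of 36 with Mettl14 knockdown (15.0% and 27.8%, against 15.2% and 26.5% over all). With Mettl3 knockdown they numbered 9 of 61 and 12 of 40 (14.8% and 30%, against 10.8% and 23.7%). These new Slc peaks rested on few tags, with medians of 10.0, 19.5, 13 and 33.5, against 65.5 to 106 for the knockdown peaks that were shared. Whether depth has a part in the losses was not tested, because library totals are not in the tables.

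There were 49 Slc sites present in both scramble libraries (38.3% of Slc sites, against 46.7% of all sites with a gene name). Of these, 36 were present in the Mettl14 library of set 1 (73.5%, against 78.4% of all such sites with a gene name) and 24 in that of set 2 (49%, against 64.6%). In the Mettl3 libraries 36 (73.5%, against 77.4%) and 27 (55.1%, against 70.5%) were present. Presence in all 4 knockdown libraries was found for 17 sites (34.7%, against 52.4%), absence from all 4 for 5 sites (10.2%, against 10.1%), and the other 27 were present in 1 to 3 knockdown libraries. The share of reproducible Slc sites gone from every knockdown library was thus near the share over all, while the share found in all 6 libraries was smaller than over all.

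**Figure D3:**
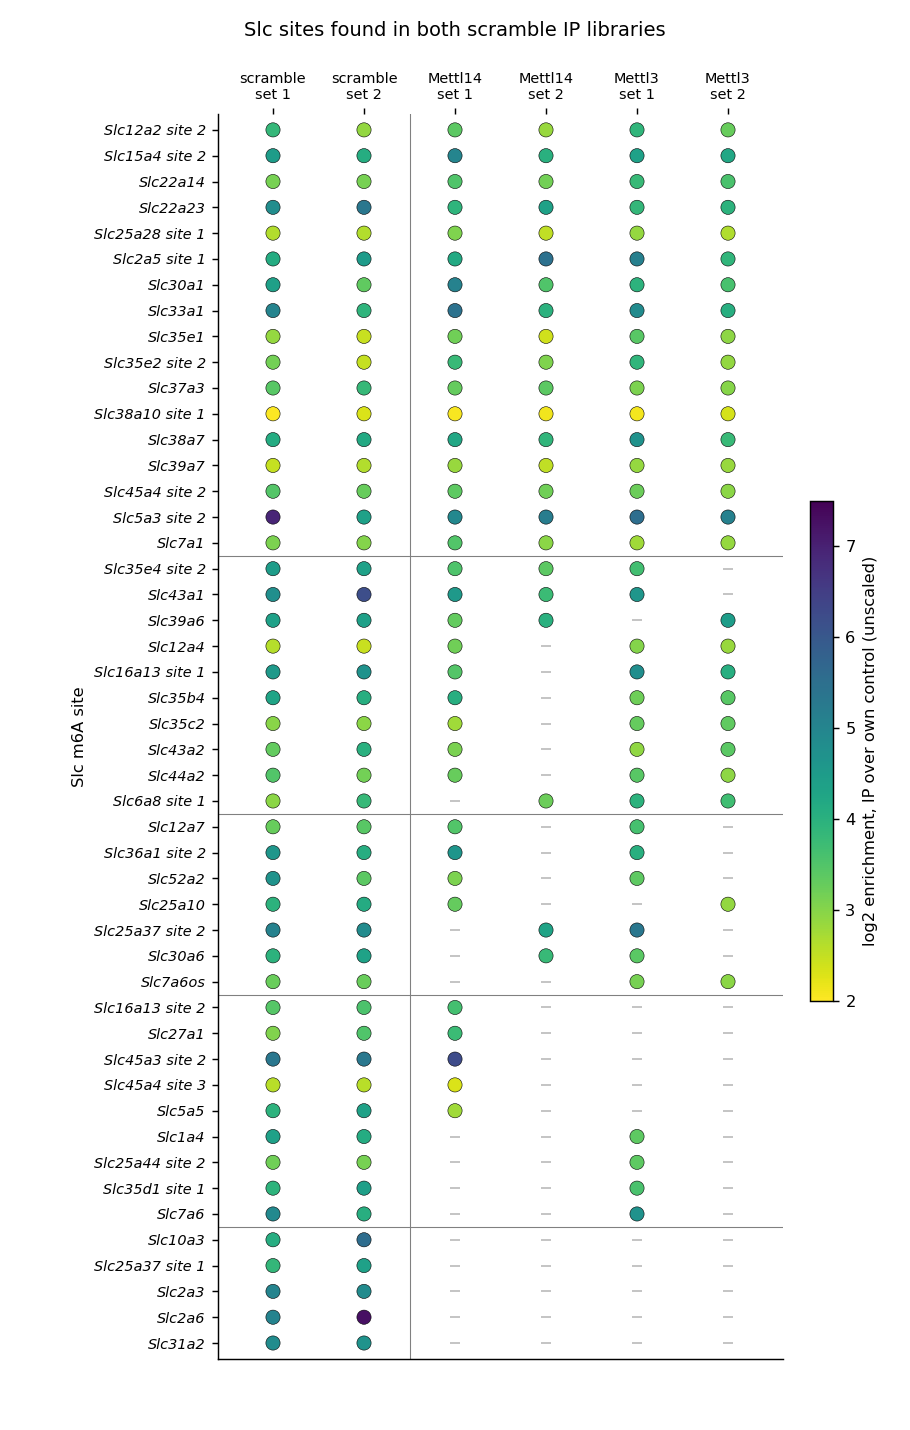
Each row is 1 of 48 of the 49 Slc sites in both scramble libraries (1 site is not shown) and each column 1 IP library. A dot marks a listed peak, coloured by log2 of its unscaled enrichment (the highest where a site holds several peaks), a dash marks no peak, and lines separate sites by how many knockdown libraries hold them, from 17 sites in all 4 at the top to 5 in none at the bottom.

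The 5 sites missing from every knockdown library came from 5 genes. Slc2a3 encodes the high-affinity glucose transporter GLUT3, and its peak (chr6:122764901-122765278, minus strand, in set 1) had enrichments of 32.4 and 29.1 in the set 1 and set 2 scramble libraries, from 26 and 29 tags. That position lies within the annotated span of Slc2a3 but overlaps no annotated exon. Slc2a6, of the same hexose transporter family, had a 3′ UTR peak (chr2:27021483-27021982) with 32.9 and 156 in scramble, from 27 and 23 tags.
Slc31a2, a copper transporter homologue, had a 3′ UTR peak (chr4:62297018-62297916) with 28.6 and 25.7, from 71 and 49 tags. Slc25a37 encodes mitoferrin 1, which imports iron into mitochondria, and its coding peak (chr14:69244778-69245228) had 14.5 and 20.8, from 44 and 43 tags. Slc10a3, an orphan member of the bile acid transporter family, had a peak (chrX:74370470-74370860) with 16.7 and 46.7, from 41 and 40 tags, which the tables also assign to Ubl4. The 5 sites had 26 to 71 tags in the set 1 scramble library and a median width of 451 nt there, against 484 nt over all sites of that pattern. Their median enrichment there was 28.6, against 15.7.

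The 17 sites in all 6 libraries were in Slc12a2, Slc15a4, Slc22a14, Slc22a23, Slc25a28, Slc2a5, Slc30a1, Slc33a1, Slc35e1, Slc35e2, Slc37a3, Slc38a10, Slc38a7, Slc39a7, Slc45a4, Slc5a3 and Slc7a1. They spanned sodium potassium chloride cotransport (Slc12a2), lysosomal histidine and peptide transport (Slc15a4), mitochondrial iron (Slc25a28), fructose (Slc2a5), zinc (Slc30a1 and Slc39a7), acetyl-CoA (Slc33a1), lysosomal glutamine (Slc38a7), myo-inositol (Slc5a3) and cationic amino acids (Slc7a1). Their median width in the set 1 scramble library was 1017 nt and their median enrichment 11.2, against 883 nt and 14 over all sites of that pattern. The site listed under Slc22a14 overlaps exons of Oxsr1 and none of Slc22a14, so it cannot be assigned to the transporter. The Slc5a3 site is listed under Mrps6 and Gm16309 as well, and the Slc39a7 site under Gm20427.

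The change of a shared peak is given in the authors' deposited tables as a signed fold of knockdown over scramble enrichment, turned into log2 here. Before that ratio the authors multiplied knockdown enrichments by 1 constant per table. Removing it raised every log2 value by 0.14 (Mettl14, set 1), 0.36 (Mettl14, set 2) and 0.72 (Mettl3, set 2). For Mettl3 in set 1 the constant was 1.003, and its removal gave a shift that rounds to -0.00. In the authors' deposited tables the median log2 change of Slc peaks was -0.26 (52 pairs of overlapping peaks) and -0.46 (26 pairs) with Mettl14 knockdown, against -0.07 and -0.60 over all pairs with a gene name. With Mettl3 knockdown it was -0.06 (52 pairs) and -0.69 (28 pairs) in the authors' deposited tables, against 0.20 and -0.91.
Negative changes were found for 32, 23, 27 and 27 Slc pairs in the 4 tables in that order (61.5%, 88.5%, 51.9% and 96.4%, against 55.5%, 86.2%, 35.7% and 93.9%). Without the constants these were 27, 19, 27 and 13 pairs (51.9%, 73.1%, 51.9% and 46.4%, against 45.8%, 66.6%, 36.0% and 63.3%), so that for Mettl3 in set 2 the Slc median turned from -0.69 to 0.03. Slc medians were lower than the overall medians in set 1 and higher in set 2 for both knockdowns. A constant moves both medians of a table alike, so removing it cannot change that order. Shared Slc peaks were called narrower in the knockdown library in 44 of 52, 15 of 26, 43 of 52 and 23 of 28 pairs. Their median widths were 80.6%, 95.1%, 83.2% and 93% of the scramble peak. Narrowing was not particular to Slc peaks, as median widths over all pairs with a gene name ran from 87.5% to 92%. For both knockdowns the Slc median width lay below that over all pairs in set 1 and above it in set 2. A fold therefore compares regions that differ in extent.

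**Figure D4:**
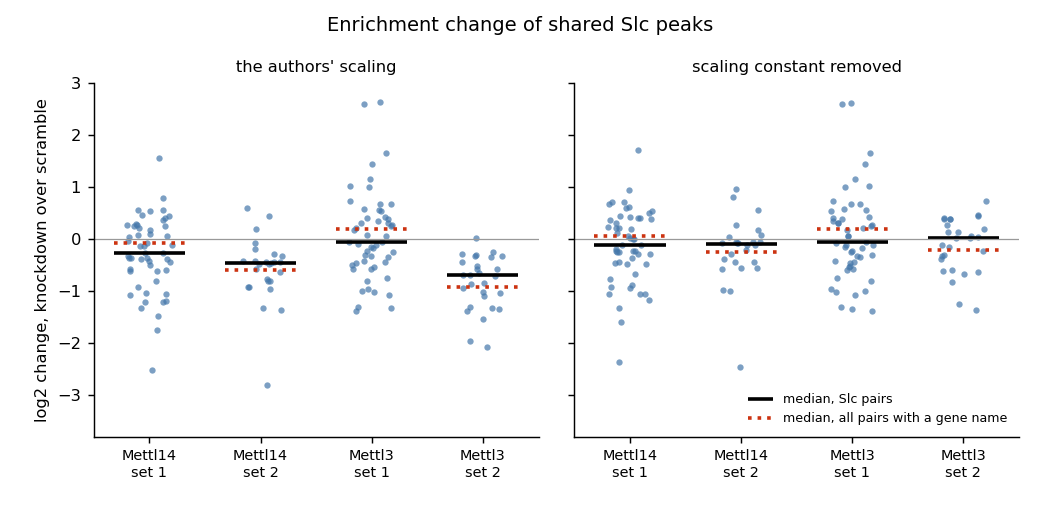
Log2 change of enrichment, knockdown over scramble, of each pair of overlapping Slc peaks (points) in the 4 tables, with the authors' scaling (left) and with the scaling constant removed (right). Black lines are medians of Slc pairs and dotted red lines medians of all pairs with a gene name; for Mettl3 in set 2 the Slc median moves from -0.69 to 0.03.

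Slc22a23, an orphan member of the organic ion transporter family, had lower enrichment in all 4 knockdown libraries. Its peak at the stop codon (chr13:34182908-34183174, minus strand) had enrichments of 28.1 and 39.7 in scramble, 15.2 and 20.3 in Mettl14 knockdown, and 14.4 and 15.5 in Mettl3 knockdown. Every knockdown value lay below both scramble values, before as well as after scaling. The authors' deposited tables give it log2 changes of -1.03 and -1.33 for Mettl14 and -0.96 and -2.07 for Mettl3. The GGACT shown for Slc22a23 lies 4 nt from the centre of its set 1 scramble peak. At the other sites shown the distance ran from 1 nt (Slc25a28 site 1) to 83 nt (Slc31a2).
Slc37a3, a member of the sugar phosphate exchanger family, showed smaller decreases. Its 3′ UTR peak had 10.7 and 14.1 in scramble, 9.83 and 10.4 in Mettl14 knockdown, and 8.53 and 7.98 in Mettl3 knockdown. The knockdown values lay below both scramble values, with log2 changes of -0.26, -0.81, -0.32 and -1.54 in the same order by the authors' deposited tables.
Slc7a1, the arginine and lysine transporter CAT1, had 8.48 and 8.08 in scramble, 11.2 and 7.76 in Mettl14 knockdown, and 6.88 and 7.27 in Mettl3 knockdown. Its groups overlapped for Mettl14 and did not for Mettl3.

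Over the 14 Slc sites with exactly 1 peak in each library, both Mettl14 enrichments lay below both scramble enrichments at 5 sites on the scaled values (34.6% of all such sites) and at 2 on the unscaled values (21.8%). The 5 were Slc22a23, Slc37a3, Slc38a10 site 1, Slc38a7 and Slc45a4 site 2, and the 2 were Slc22a23 and Slc37a3. Both Mettl3 enrichments lay below at 4 sites on either scale, which were Slc22a23, Slc37a3, Slc45a4 site 2 and Slc7a1. Over all such sites the share was 20.1% scaled and 17% unscaled. No Slc site was above both scramble values on the scaled values (3.44% of all sites for Mettl14 and 1.27% for Mettl3). On the unscaled values 1 was above with Mettl14, at the Oxsr1 exon listed under Slc22a14 (13.3% of all such sites). With Mettl3, also unscaled, 4 were above, which were that site, Slc25a28, Slc35e1 and Slc39a7 (17.7% of all such sites). The direction at these last sites thus rests on the constant. Slc25a28, for instance, had 6.24 and 6.25 in scramble, 8.31 and 5.77 in Mettl14 knockdown, and 7.27 and 6.33 in Mettl3 knockdown.

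At the level of genes, a gene counts as lower in a table when each of its peaks there was lost or had a negative change, and as higher when all of them were new or had positive changes. By that rule 59 of 87 Slc genes were lower in set 1 and 48 of 60 in set 2 with Mettl14 knockdown (57.8% and 70.6% of all genes were). With Mettl3 knockdown they were 54 of 85 and 46 of 58 (49.6% and 75.6% of all genes). Of 54 Slc genes listed in both Mettl14 tables, 29 were lower in both sets (53.7%, against 41.8% of all genes). A further 2 were higher (3.7%, against 7.55%) and 14 had opposite calls in the sets (25.9%, against 26.1%). Of 52 listed in both Mettl3 tables, 28 were lower in both (53.8%, against 33.5%). There, 1 was higher (1.92%, against 5.81%) and 12 had opposite calls (23.1%, against 35.5%). Unscaled, 25 were lower (46.3%, against 33.4% of all genes) and 5 higher (9.26%, against 13.1%) with Mettl14. With Mettl3 they were 24 lower (46.2%, against 29.7%) and 8 higher (15.4%, against 15.6%). In all 4 tables, 21 of 48 Slc genes were lower (43.8%, against 25%) and none was higher (against 2.29% of all genes). The tables of a set share their scramble library, so the 4 are not independent of each other.
Among the 21 were Slc1a4, Slc7a6, Slc30a6, Slc39a6, Slc43a1 and Slc43a2, Slc2a3, Slc2a6 and Slc5a5, Slc10a3, Slc22a23, Slc25a10, Slc31a2, Slc35b4, Slc35e4, Slc37a3, Slc44a2, Slc45a4, Slc52a2 and Slc7a6os. Slc7a6os aside, those named are by family number amino acid, bile acid, sugar, inorganic ion, metal, nucleotide sugar, mitochondrial, organic ion and vitamin transporters.

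A scramble peak was present in both sets for 48 Slc genes (50.0% of those listed, against 56.7% of all genes). With Mettl14 knockdown 11 of these lost every scramble peak in both sets (14.9% of all such genes did). With Mettl3 knockdown 10 of them did (13.8% of all such genes). The Mettl14 list was Slc10a3, Slc12a8, Slc16a6, Slc1a4, Slc25a44, Slc2a3, Slc2a6, Slc31a2, Slc35d1, Slc7a6 and Slc7a6os. The Mettl3 list included Slc10a3, Slc12a8, Slc16a6, Slc27a1, Slc2a3, Slc2a6, Slc31a2, Slc45a3 and Slc5a5. Both lists held 6 genes in common (8.76% of all genes did so in all 4 tables). In 2 of these, Slc12a8 and Slc16a6, the peaks of the sets lay at different places, and a peak missing within its own set met a Mettl3 peak of the other set, at 1 of the scramble sites of Slc12a8 and both of Slc16a6. Slc16a6, a monocarboxylate transporter family member, had a coding peak of 110 in the set 2 scramble library that met a peak of 24 in the set 1 Mettl3 library. Another Slc16a6 coding peak of 17.1 in set 1 scramble met one of 12.8 in set 2 Mettl3. Those 3 sites were thus present in 1 of the knockdown libraries.

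Some sites held in both libraries of 1 knockdown and in neither of the other. With both Mettl14 libraries and no Mettl3 library there were 2 of 128 Slc sites (1.56%, against 2.23% of all sites). With both Mettl3 libraries and no Mettl14 library there were 3 (2.34%, against 1.72%). Slc35b3, a nucleotide sulfate transporter of the Golgi, had a stop codon site with 40.9 in the set 1 scramble library and 33.3 and 29.5 in Mettl14 knockdown, from 18 to 39 tags. Slc7a6os had a 3′ UTR site with 9.54 and 9.56 in scramble and 8.78 and 7.72 in Mettl3 knockdown. Slc25a44, the mitochondrial carrier of branched-chain amino acids, had a stop codon site with 11.6 in set 1 scramble and 8.01 and 6.01 in Mettl3 knockdown. Slc19a1, the reduced folate carrier, had a coding site with no scramble peak and 15.3 and 7.44 in the Mettl3 libraries, from 62 and 83 tags. A difference between the knockdowns at such sites was not tested, and their counts stand near the shares over all sites.

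Groups of cargo were set by family number, whatever the known cargo of a single member. Amino acid transporters held the most sites, 28 in 19 genes, of which 9 were in both scramble libraries and 3 in all 6 libraries. Another 9 were in knockdown libraries alone, and none was in both scramble libraries and no knockdown library. Over all scramble peaks with a gene name, against which each group's lost peaks can be read, the shares lost in sets 1 and 2 were 38.9% and 41.2% for Mettl14 and 40.9% and 36.6% for Mettl3. Of the amino acid peaks of the scramble libraries, 10 of 18 and 4 of 10 were lost with Mettl14 knockdown, and 6 of 18 and 4 of 10 with Mettl3 knockdown. Slc43a1, the leucine transporter LAT3, had a 3′ UTR peak (chr2:84862908-84863418) with 27.4 and 73.4 in scramble, 23.2 and 13.4 in Mettl14 knockdown and 24.3 in the set 1 Mettl3 library, with none in set 2. For Mettl14 the authors' deposited tables give -0.38 and -2.81 on the log2 scale, so the large change belongs to set 2, where the scramble value was high. Slc43a2, its relative LAT4, had a stop codon site with 10.1 and 16.1 in scramble, 8.66 in set 1 Mettl14 knockdown, and 7.52 and 10.7 in Mettl3 knockdown.
Slc1a4 and Slc7a6 encode the neutral amino acid exchanger ASCT1 and the exchanger y+LAT2. Slc1a4 had a 3′ UTR site with 20.7 and 17.3 in scramble, none in Mettl14 knockdown and 10.2 in the set 1 Mettl3 library. The corresponding values of Slc7a6 were 30.2 and 16.6 in scramble and 25.9 in the set 1 Mettl3 library. Slc38a10 and Slc38a7 kept a site in all 6 libraries, with 4.07 to 5.10 for Slc38a10 site 1, among the weakest of the Slc sites, and 13.8 to 25.8 for Slc38a7. Before scaling, the values of neither separated the groups, while with scaling both Mettl14 values lay below scramble at each.

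Hexose and related transporters of families 2, 5 and 45 had 14 sites in 9 genes, of which 8 were in both scramble libraries. Of those 8, 3 were in all 6 libraries and 2, Slc2a3 and Slc2a6, in no knockdown library. Of the peaks of this group in scramble, 5 of 13 and 5 of 8 were lost with Mettl14 knockdown and 9 of 13 and 5 of 8 with Mettl3 knockdown. Slc2a5, the fructose transporter GLUT5, had a 5′ UTR site with 17.4 and 22.7 in scramble, 18.2 and 44.3 in Mettl14 knockdown, and 34.8 and 14.8 in Mettl3 knockdown. Its highest value was in set 2 for Mettl14 and in set 1 for Mettl3, and the groups overlapped. Slc5a5, the sodium iodide symporter, is counted in this group by its family number alone. It had a 3′ UTR site with 15.5 and 20.4 in scramble, 6.87 in the set 1 Mettl14 library and no other knockdown peak. Slc45a3 had a coding site with 39.6 and 39.4 in scramble, from 47 and 23 tags over 740 and 311 nt, and 75.8 in the set 1 Mettl14 library, from 9 tags over 186 nt, and none in the others. At both sites the set 1 Mettl14 library alone kept a peak, lower than scramble at Slc5a5 and higher at Slc45a3.
Slc5a3, the myo-inositol cotransporter, had the highest mean enrichment of the sites in all 6 libraries, 48.3 with the highest peak of each library. Its set 1 scramble library held 2 peaks, of 42 and 121, where set 2 held 1 wide peak of 20.7. The Mettl14 libraries held 30.3 and 23.4 in set 1 and 15.3 and 36.5 in set 2, and the Mettl3 libraries 46.5 and 34.6. As the site was split into 2 peaks in 3 of the libraries, its folds depend on which peaks are paired, and in the authors' deposited tables they ran from -2.52 to 0.45 on the log2 scale.

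Mitochondrial carriers lost 11 of 14 set 1 scramble peaks and 4 of 6 in set 2 with Mettl14 knockdown, and 6 of 14 and 4 of 6 with Mettl3 knockdown, where 38.9%, 41.2%, 40.9% and 36.6% of all scramble peaks with a gene name were lost. Their 13 genes held 16 sites, 10 in 1 scramble library only, 5 in both scramble libraries and 1, in Slc25a28 (mitoferrin 2), in all 6. Slc25a37, which encodes mitoferrin 1, had 2 sites that fared differently: the coding site was in no knockdown library, and the second (chr14:69248685-69249219), whose centre is outside the exons of the basic annotation but which overlaps an exon of another annotated Slc25a37 transcript, had 33.5 and 29.1 in scramble, 19.7 in set 2 Mettl14 knockdown and 40.1 in set 1 Mettl3 knockdown. Slc25a10, the dicarboxylate carrier, had 15.6 and 17.6 in scramble, 9.82 in set 1 Mettl14 knockdown and 7.40 in set 2 Mettl3 knockdown, each below both scramble values. The 2 largest increases of any shared Slc peak were in this family, at Slc25a43 and Slc25a30, with log2 changes of 2.63 and 2.60 for Mettl3 in set 1 in the authors' deposited tables. Both rested on a few tags, 8 and 16, in knockdown peaks of 105 and 176 nt against scramble peaks of 258 and 361 nt, and neither gene had a peak in set 2.

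Metal transporters of families 11, 30, 31 and 39 had 13 genes with 1 site each, 5 of them in both scramble libraries. They lost 5 of 9 and 1 of 5 scramble peaks under Mettl14 knockdown, and 5 of 9 and 2 of 5 under Mettl3 knockdown. Slc39a6, the zinc importer ZIP6, had a coding site with 20.7 and 21.1 in scramble, 9.98 and 16.1 in Mettl14 knockdown, and 22.1 in set 2 Mettl3 knockdown with none in set 1. That last value is above its scramble partner and becomes a log2 change of -0.65 only with the scaling constant in the authors' deposited tables. Slc30a6, a zinc transporter of the Golgi, had 15.7 and 20.2 in scramble, 13.8 in set 2 Mettl14 knockdown and 10.6 in set 1 Mettl3 knockdown. Slc39a7, the zinc transporter ZIP7 of the endoplasmic reticulum, kept weak enrichments of 5.59 to 7.36 in all 6 libraries. The exporter Slc30a1 kept its site in all 6, called as 1 peak of 1157 nt and 21.1 in set 1 scramble and as 2 peaks in both set 1 knockdown libraries, of 10.1 and 33.7 for Mettl14 and 15.5 and 15.3 for Mettl3.

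The inorganic ion group had 21 sites in 14 genes and lost 7 of 13 and 7 of 10 scramble peaks with Mettl14 knockdown and 9 of 13 and 7 of 10 with Mettl3 knockdown. Nucleotide sugar and acetyl-CoA transporters lost, in set 1, 4 of 14 with Mettl14 knockdown and 6 of 14 with Mettl3 knockdown, and 3 of 7 and 2 of 7 in set 2. Slc35e4 had a 5′ UTR site with 22.2 and 20.8 in scramble, 11.6 and 10.4 in Mettl14 knockdown and 12.7 in set 1 Mettl3 knockdown, all of them below scramble, and the Mettl14 log2 changes by the authors' deposited tables were -1.07 and -1.36. Slc35e2 stood at the other end, with 9.05 and 5.63 in scramble, 13.8 and 8.34 in Mettl14 knockdown and 15.0 and 7.45 in Mettl3 knockdown. Each Slc35e2 value of set 1 exceeded the set 2 value of the same group, and the authors' deposited tables give log2 changes of 0.47 and 0.20 for Mettl14 and 0.73 and -0.31 for Mettl3, the last of which turns positive without the scaling constant.
The carboxylate and bile acid group of families 10 and 16 had 9 sites in 6 genes and none in all 6 libraries. It lost 4 of 8 and 4 of 4 scramble peaks with Mettl14 knockdown and 4 of 8 and 3 of 4 with Mettl3 knockdown. Organic ion, vitamin and lipid transporters lost 3 of 9 and 3 of 6 with Mettl14 knockdown and 4 of 9 and 2 of 6 with Mettl3 knockdown. In that group Slc52a2, a riboflavin transporter, had a stop codon site with 25.6 and 10.4 in scramble and 8.43 and 10.4 in the set 1 Mettl14 and Mettl3 libraries. The groups of cargo thus hold few peaks each, and differences between them were not tested.

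**Figure D5:**
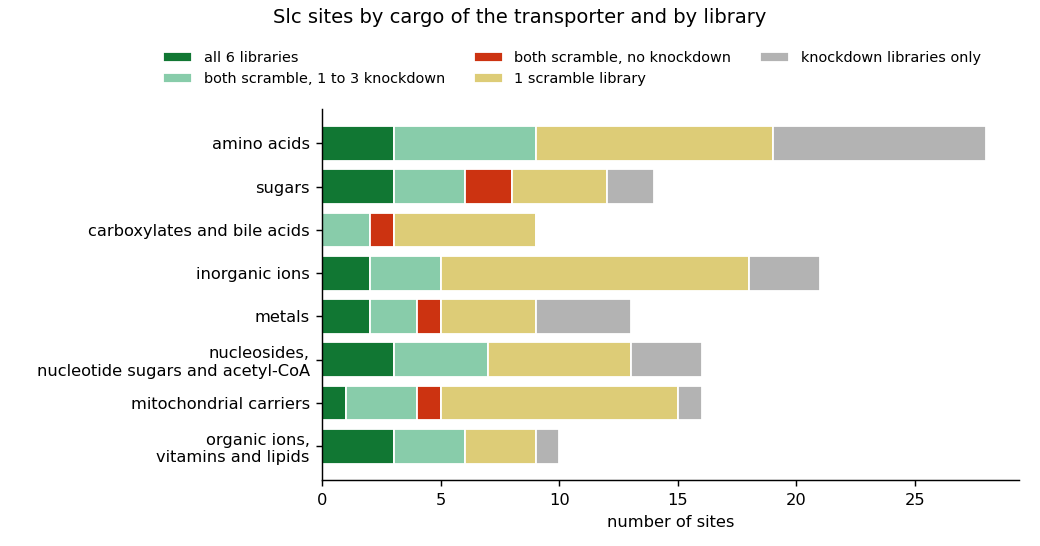
Number of Slc sites per group of cargo, set by family number (rows), split by the libraries in which they were found (colours). Amino acid transporters have 28 sites, 9 of them in knockdown libraries alone, and the sites in both scramble and no knockdown library fall in sugars (2), carboxylates and bile acids (1), metals (1) and mitochondrial carriers (1).

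Sites found in knockdown libraries alone numbered 23 (18%, against 17.3% of all sites), of which 18 were in 1 library. The 18 had a median of 13.5 tags, a median width of 264 nt and a median enrichment of 58.3. Over all sites of that pattern the medians were 15.0 tags, 218 nt and 46.6. Such sites were thus short, thinly covered and steep in Slc genes as over all. The other 5, which stood in at least 2 knockdown libraries (3.91% of Slc sites, against 4.24%), were in Slc19a1, Slc36a4, Slc6a15, Slc7a4 and Slc43a3. Slc36a4, a proton-coupled amino acid transporter family member, had a stop codon site (chr9:15738264-15738461) with 134 and 132 in Mettl14 knockdown and 100 in set 2 Mettl3 knockdown, from 8 to 10 tags. Slc6a15, a neutral amino acid transporter, had 14 and 22.9 in the set 2 libraries of Mettl14 and Mettl3 knockdown, from 31 and 18 tags. Slc38a9, the lysosomal arginine sensor, was called higher in both Mettl14 tables, but by 2 neighbouring 3′ UTR peaks of 91.0 and 68.3, from 15 and 11 tags, that do not overlap. Slc19a1, with 62 and 83, had more tags than the other 4 of these sites.

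Of the 13 listed transporters of fuel and amino acid uptake, Slc2a3, Slc7a1, Slc7a6, Slc1a4, Slc6a8 and Slc12a2 had a peak in both scramble libraries. Slc2a1, the main glucose transporter GLUT1, had 1 broad 3′ UTR peak of 1060 nt in the set 1 scramble library, with the lowest enrichment of any Slc peak, 2.57, and the most tags listed for any Slc peak, 524. Slc38a2, a sodium-coupled glutamine transporter, likewise had 6.70 from 175 tags in the set 1 scramble library and no other peak. Slc1a5, the glutamine transporter ASCT2, had a coding site with 8.64 in set 1 scramble and 19.2 in set 1 Mettl3 knockdown, and a stop codon site with 12.5 in set 1 scramble and 20.5 in set 1 Mettl14 knockdown. Slc16a3, the lactate exporter MCT4, had a coding site with 5.99 in scramble, 6.99 in Mettl14 knockdown and 5.74 in Mettl3 knockdown, all in set 1. Slc39a14, which takes up zinc and iron, had 6.76, 9.85 and 10.8 in the same libraries. Of the genes named since Slc2a1, only Slc16a3 had a peak in a set 2 library, at a second site with 3.60 in set 1 scramble and 4.67 in set 2 Mettl3 knockdown.
Slc6a8, the creatine transporter, had a 5′ UTR site with 7.76 and 14.1 in scramble, 9.38 in set 2 Mettl14 knockdown and 15.7 and 12.9 in Mettl3 knockdown. Slc6a9, the glycine transporter GlyT1, had a site with 129 in set 1 scramble, 101 in set 1 Mettl14 knockdown and 64.8 in set 1 Mettl3 knockdown, from 14 and 20 tags in the knockdown libraries. Slc20a2, a phosphate transporter, had 3 sites in 1 library each, of which the second, of 37.5 in set 1 scramble, overlaps an exon of Gm17491 and none of Slc20a2.

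Sites of 1 gene could differ in the libraries that held them. Slc45a4 had the most scramble peaks of any Slc gene, 5 over both sets. Its coding site was in all 6 libraries with 11.2 and 9.69 in scramble, 10.3 and 9.16 in Mettl14 knockdown and 9.38 and 7.74 in Mettl3 knockdown. The 5′ UTR site of Slc45a4 had 6.00 and 6.00 in scramble and 4.95 in set 1 Mettl14 knockdown alone, and its 3′ UTR site had 8.93 in set 1 scramble alone. Slc12a2, the cotransporter NKCC1, had a coding site in all 6 libraries with 14.3 and 7.46 in scramble, 10.4 and 7.17 in Mettl14 knockdown and 14.9 and 9.68 in Mettl3 knockdown. The other 2 sites of Slc12a2 were in 1 scramble library each, with 38.5 from 29 tags and 42.6 from 17 tags. Slc16a13 had a 3′ UTR site with 23.2 and 26.2 in scramble, 11.2 in set 1 Mettl14 knockdown and 28 and 16.6 in Mettl3 knockdown, and a coding site with 11 and 11.7 in scramble and 12.5 in set 1 Mettl14 knockdown alone. Slc15a4 had a stop codon site in all 6 libraries, with 16.1 to 32.1, beside a 3′ UTR site of 12.6 in set 1 scramble alone.

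Other transport genes were fewer. The tables list 9 ABC transporters, 9 Mfsd genes, 11 ATPase pump genes and 4 Slco genes, with 3, 4, 4 and 0 having a peak in both scramble libraries. ABC transporters lost 50.0% and 33.3% of their 10 and 3 scramble peaks under Mettl14 knockdown, and 30% and 33.3% under Mettl3 knockdown. ATPase pumps lost 44.4% and 20% of their 9 and 5, and 33.3% and 20%. Mfsd genes lost 50.0% of their 6 and 6 in every table. Slco genes had 3 scramble peaks, all in set 1, and lost 0% of them under Mettl14 and 33.3% under Mettl3 knockdown. These shares rest on 3 to 10 peaks, and their differences from the Slc shares were not tested.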

How the data were processed

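The study sequenced 12 libraries of J1 cells, input and IP. Only the peak lists of the 6 IP libraries, in 4 deposited tables, were used. Reads were handled with CASAVA 1.8.2, cutadapt 1.1, TopHat2 2.0.6, Bowtie 0.12.7, SAMtools 0.1.18 and Picard 1.74 on mm10, per the submitters' processing notes, which give no roles. No source used here names the version of the peak caller. As the file headers show, the authors list for each peak a tag count, an enrichment ratio, a caller score and a false discovery rate in percent, whose highest value was 9.99%. The authors also deposited a scaled enrichment and, as a score, the signed fold of knockdown over scramble. Library totals are not in the tables, so depth is known only as tags per peak. Tags are not listed for scramble peaks shared in both tables of a set.

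Peaks were matched by same-strand overlap of at least 1 nt, which gave the same lost, new and shared calls as the authors' marks, and joined into sites. The comparison in each case is with peaks, sites or genes that carry a gene name. Position and sequence came from GENCODE M21 (mm10). Intervals are 95% Wilson intervals. The script was tested on simulated data. Python 3.11.15, pandas 2.3.3, numpy 2.4.6, scipy 1.17.1 and matplotlib 3.10.9 were used. Members, cargo groups and gene lists were chosen with earlier results of these data known.

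Genes were named by rule: those with a scramble peak in each set that lost every such peak in both sets of a knockdown, the 6 lowest and 6 highest mean changes per knockdown at sites shared in both sets, new peaks at overlapping positions in both sets, the 6 genes with most scramble peaks, the 6 highest mean enrichments among sites in all 6 libraries, and a list of 26 transporters for fuel and amino acid uptake. Others (Slc35b3, Slc7a4, Slc6a15, Slc43a3, Slc38a9, Slc25a10, Slc25a30, Slc25a43, Slc30a1, Slc30a6, Slc39a7, Slc52a2 and Slc38a10) were chosen after their values were seen. Some genes that the rule names are not reported here. The alternatives tried were unscaled enrichment, centring on the median of all shared peaks, a stricter false discovery rate, a minimum of tags, a larger overlap and each set alone.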

Additional observations from a re-analysis of the deposited data

How the results depend on the processing

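The shares of Slc peaks lost and the counts of genes lower in both sets moved by less than their interval, or by less than 1.5 times, under every alternative run except a set taken alone. New Slc peaks fell from 15.0% to 6.0% (Mettl14, set 1) and from 14.8% to 7.84% (Mettl3, set 1) when at least 20 tags were required. The median log2 change of shared Slc peaks was -0.12 (Mettl14, set 1), -0.10 (Mettl14, set 2) and 0.03 (Mettl3, set 2) on unscaled enrichments. With the median of all shared peaks set to 0 it was 0.13 for Mettl14 and 0.22 for Mettl3 in set 2. Both set 2 medians thus turn positive once the shift of all peaks is taken off. Slc genes higher in both sets numbered 5 (Mettl14) and 8 (Mettl3) unscaled, where 13.1% and 15.6% of all genes listed in both sets were higher, and 8 and 7 with that median at 0, where 15.7% and 14.9% were. Taken alone, the sets gave 48 to 59 (Mettl14) and 46 to 54 (Mettl3) genes lower, 10 to 16 and 7 to 20 genes higher, and 52 to 82 genes with a scramble peak, since agreement between sets is then not asked. At a false discovery rate of at most 5%, 2 of the 40 set 1 scramble Slc peaks that overlap a set 2 scramble peak were absent from all 4 knockdown libraries, against 5 of 51 (9.8%) without that limit, where 11.2% of all such peaks were absent.

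A minimum of 20 tags in both libraries of a shared peak was not run, because scramble tags of peaks shared in both tables are not listed; a minimum in the knockdown library alone was chosen after seeing the data and kept every median's direction. No paired analysis was possible because no test was fitted to which a replicate block applies; each fold and each lost or new call already compares libraries of 1 set. Enrichments of peaks with under 20 tags are imprecise, and a missing peak cannot be told apart here from less transcript or lower depth.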
